A study of Catharus ustulatus with 19 samples.

Results

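The inland and the coastal form of Swainson's thrush (Catharus ustulatus) were compared in brain tissue of birds labelled non-migratory. The birds were taken by their labels alone: 10 of the 19 birds of the series were labelled non-migratory, 4 of them inland and 6 coastal. All 4 inland birds were male, and the coastal birds were 4 males and 2 females. Each library came from 1 bird and held the hypothalamus together with the optic chiasma. All birds, of either ecotype, had lived in captivity for more than 1 year under constant conditions, with day length following the natural season. Age and place of origin were not given in the sources used here. Inland replicate 1 and coastal replicates 1 to 3 were collected on 7 August 2011. Inland replicates 2 to 4, coastal male replicate 4 and coastal female replicate 5 followed on 8 August. Coastal female replicate 6 was collected on 4 October, although it carried the non-migratory label. Hours after lights on ranged from 3.03 to 6.53 in the inland and from 2.5 to 7.55 in the coastal birds.

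Swainson's thrush breeds in North America and flies at night to the tropics. Its coastal and inland populations meet in western mountains and reach different wintering areas along separate routes, so they are often studied as forms that differ in inherited migratory behaviour. The hypothalamus reads day length and energy state and sets reproduction, feeding, body temperature and daily rhythm through its neurons and hormones. The optic chiasma beneath it is mostly myelinated nerve fibres and glia.

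The deposited table covers 11727 genes in logarithmic units of unstated base. They are taken as log2, on which each fold below rests, and they carry no sequencing depth. The genes have identifiers of the form ENSFALG, which Ensembl uses for the collared flycatcher, without names. None of the 11727 identifiers was in the gene table used here, which is that of Swainson's thrush. No function, position or sequence is therefore attached to a gene, and the labelled tissue was not checked against marker genes. Nothing was measured per cell: in such tissue blocks, fewer cells of a type and less RNA per cell cannot be told apart.

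Inland replicate 1 stood apart from the other 9 birds. The SD across genes of the difference between a pair of birds was 0.44 to 0.56 log2 in its 9 pairs. Its 3 pairs with inland birds (0.49 to 0.55) were no closer than its 6 pairs with coastal birds (0.44 to 0.56). The other inland birds differed among themselves by 0.34 to 0.40 log2. They differed from the coastal birds by 0.39 to 0.48, and the 15 pairs of coastal birds by 0.37 to 0.48. On the first principal component, with 23.4% of the variance, inland replicate 1 lay at 36.1 and the remaining birds between -18.1 and 11.2. On the second component, with 15.1%, the inland males lay from 6.56 to 19.2 and the coastal males from -20.5 to -8.52. The coastal females, at 3.30 and 9.92, lay between or among them. Inland replicate 1 was also the only inland bird of 7 August, so that day and that bird cannot be told apart within the inland group.

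**Figure D1:**
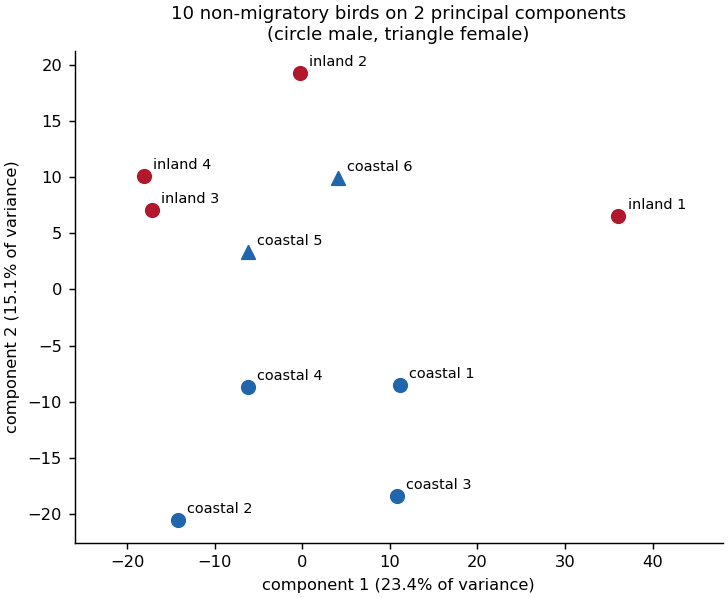
Principal components 1 (x axis, 23.4% of the variance) and 2 (y axis, 15.1%) of the 10 non-migratory birds over 11727 genes; red points are inland and blue coastal birds, circles males and triangles females. Inland 1 lies alone at 36.1 on component 1, and the inland and coastal males do not overlap on component 2.

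Few genes passed the test between the ecotypes. Of the 11727 genes, 49 (0.418%) differed between inland and coastal birds at an adjusted p under 0.05 (limma with a sex term, Benjamini-Hochberg adjustment, smallest adjusted p = 0.00037). Of these, 28 genes (0.239%) were higher and 21 (0.179%) lower in inland birds. The called differences were moderate: their median size was 0.87 log2 (1.82-fold), their quartiles 0.68 and 1.19, and 21 of the 49 were over 1 log2. The median size was 0.85 log2 in the higher and 0.90 log2 in the lower genes. The upper quartile was 1.12 log2 in the higher against 1.65 in the lower genes, and the maximum 1.90 against 2.59. Over all genes the median size was 0.10 log2, and 51.5% of genes had the higher value in inland birds.

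An unadjusted p under 0.05 was reached by 1089 genes (9.29%). In 66.5% of genes the whole 95% interval was closer to 0 than 0.5 log2, and in 92.5% it was closer than 1 log2. For those 92.5% of genes, an ecotype difference of 2-fold or more lay outside the interval. In the remaining genes the interval reached 1 log2 or beyond.

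**Figure D2:**
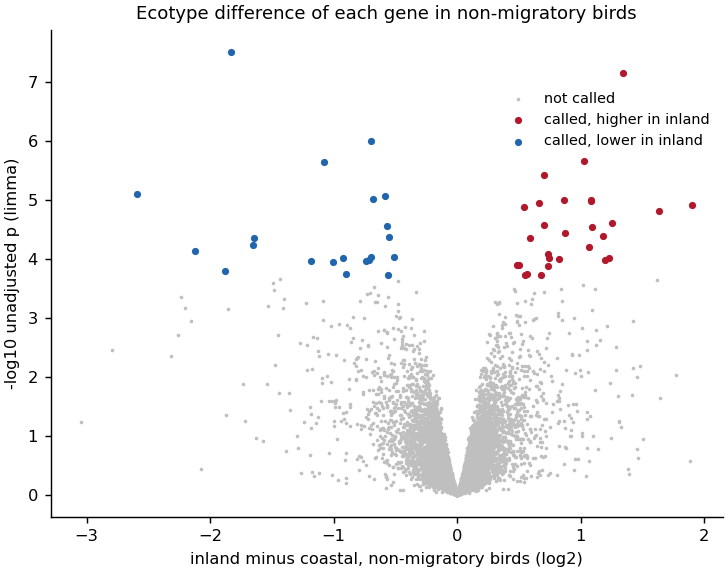
Each point is 1 of 11727 genes: the x axis gives the inland minus coastal difference in non-migratory birds (log2), the y axis -log10 of the unadjusted limma p. The 28 called genes higher in inland birds are red, the 21 lower ones blue, and grey genes were not called.

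ENSFALG00000012167 was the gene with the smallest p among those higher in inland birds. The inland birds stood at 29.92, 29.65, 30.01 and 29.84 log2 (replicates 1 to 4). The coastal males stood at 28.37, 28.59, 28.64 and 28.47, and the coastal females at 28.77 and 28.48. Every inland bird lay above every coastal bird, with 0.88 log2 of empty space between them. Inland birds averaged 29.86 ± 0.15 log2 (SD, n = 4) against 28.55 ± 0.14 in coastal birds (SD, n = 6). The sex-adjusted difference was 1.34 ± 0.10 log2 (SE, limma adjusted p = 0.00041), a 2.53-fold higher level with a 95% interval of 1.11 to 1.57 log2. Males collected on the same day gave 1.39 log2 on 7 August and 1.37 on 8 August.

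ENSFALG00000011745, the next of the higher genes, stood at 27.85, 28.05, 28.12 and 28.21 log2 in inland birds. Coastal males stood at 27.20, 27.01, 26.84 and 27.06, and the females at 27.26 and 27.07. The ecotypes did not overlap, and the lowest inland bird was replicate 1. The difference was 1.03 ± 0.11 log2 (SE, limma adjusted p = 0.0052), or 2.04-fold with a 95% interval of 0.78 to 1.27 log2. It was 0.83 log2 among males of 7 August and 1.06 among those of 8 August.

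Among the genes lower in inland birds, ENSFALG00000009878 had the smallest p. Its inland values were 25.86, 25.70, 26.03 and 25.69 log2, those of the coastal males 27.85, 27.78, 27.47 and 27.50, and those of the coastal females 26.94 and 26.81. The values form a ladder, with the coastal females between the coastal males and the inland males. Adjusted for sex, inland birds differed by -1.83 ± 0.13 log2 (SE, limma adjusted p = 0.00037), which is 3.56-fold lower with a 95% interval of -2.12 to -1.55 log2. Without the sex term, which lets the females lower the coastal mean, it was -1.57 log2. It was -1.85 log2 among males of 7 August and -1.69 among those of 8 August.

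ENSFALG00000005089 stood at 28.33, 28.41, 28.28 and 28.45 log2 in inland birds and at 29.03, 29.01, 29.07 and 29.17 in coastal males. Its coastal females, at 29.19 and 29.11, lay with the males. The gene varied little within an ecotype, with SDs of 0.08 (n = 4) and 0.07 log2 (n = 6), so that a difference of -0.70 ± 0.07 log2 (SE, 1.63-fold, 95% interval -0.86 to -0.55) passed the threshold (limma adjusted p = 0.0039). Same-day males differed by -0.71 log2 on 7 August and by -0.79 on 8 August.

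The gene with the largest called difference in each direction was looked up after its values were seen. That with the largest excess in inland birds stood there at 26.34, 27.49, 26.80 and 26.48 log2, against 24.70, 24.88, 24.87 and 25.06 in coastal males and 24.83 and 24.38 in females. Its difference was 1.90 ± 0.25 log2 (SE, 3.74-fold, limma adjusted p = 0.01). That with the largest deficit stood at 23.44, 23.09, 23.14 and 22.09 log2 in inland birds, against 25.66, 25.73, 25.75 and 24.99 in coastal males and 26.05 and 25.95 in females. Its difference was -2.59 ± 0.32 log2 (SE, 6.02-fold, limma adjusted p = 0.01). The inland values of this gene lay toward the low end of the deposited values, whose lowest was 20.38 and whose bird medians were 28.05. Depth is unknown, so the precision of such low values, and of the fold, cannot be told. Inland birds were spread over 1.14 and 1.35 log2 in these genes, more than in the 4 genes above, and the ecotypes were separated by 1.28 and 1.56 log2.

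**Figure D3:**
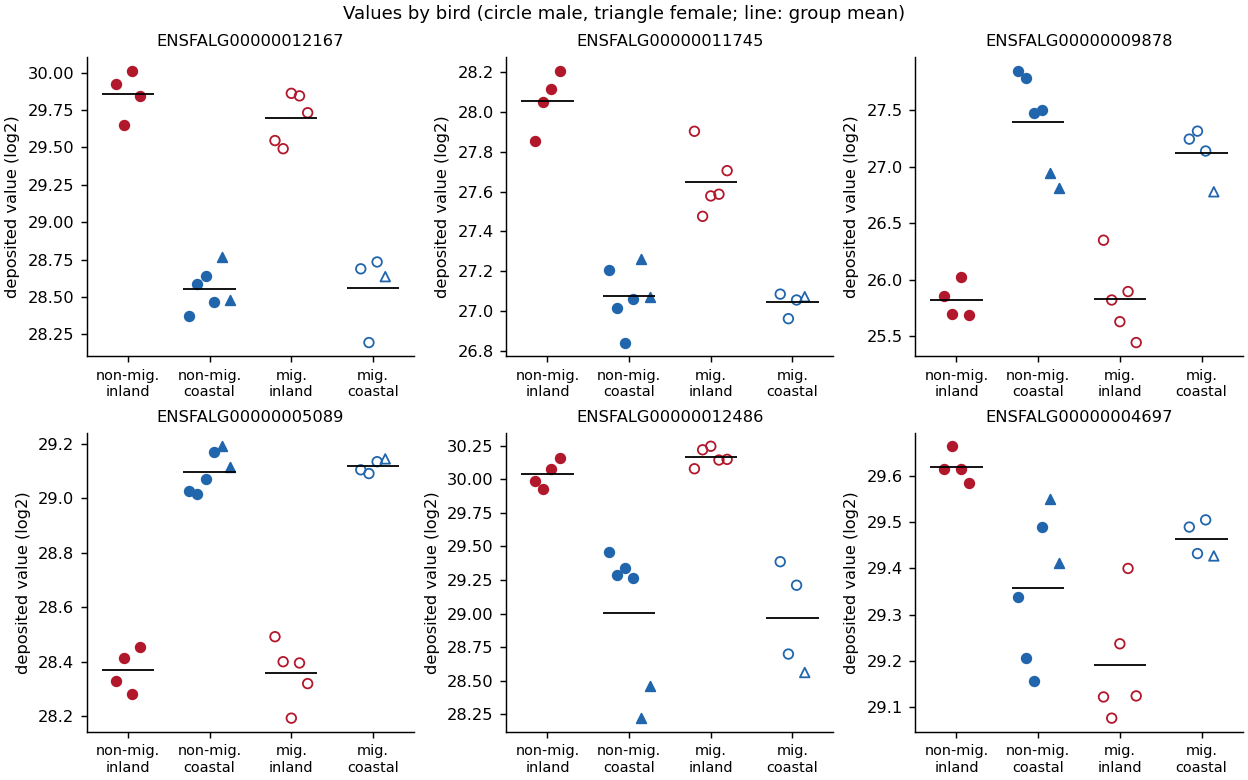
Deposited values (y axis, log2) of 6 genes in every bird by group (x axis); filled points are non-migratory and open points migratory birds, circles males and triangles females, and lines are group means. Inland and coastal birds do not overlap in either status in these genes, and in ENSFALG00000004697 (bottom right) the order of the ecotypes is opposite in the statuses.

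Both females were coastal, so sex and ecotype overlap in part. With a sex term, the ecotype difference equals that between the 4 inland and the 4 coastal males, and the females add only to the estimate of spread. In males alone, 49 genes (0.418%) were called as well, 26 with more and 23 with less signal in the inland males (limma, smallest adjusted p = 0.00083), and 45 genes were called in both fits. In every one of the 49 genes called in all birds, the inland males and the coastal males did not overlap, whereas such separation was found in 705 genes overall (6.01%). The gap between the males had a median of 0.48 log2 and ranged from 0.22 to 1.56. In 33 of the 49 genes it was wider than the range of either male group. With the females included, 39 of the 49 were still without overlap, against 314 genes overall (2.68%), 193 higher and 121 lower in inland birds. Without inland replicate 1 the 314 became 651 of the 11727 genes, and without the October female 432. Leaving out any bird can only keep or raise this count, so the rises by themselves say nothing particular about those birds. A call and a separation rest on the same values, so neither adds to the other. In the remaining 10 genes at least 1 coastal female lay within the inland range or beyond it.

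ENSFALG00000012486 shows what the sex term does, and it was among the genes of smallest p in males. Inland birds stood at 29.99, 29.93, 30.07 and 30.16 log2 and coastal males at 29.46, 29.29, 29.34 and 29.26. The coastal females lay well under them, at 28.22 and 28.46. Among males the difference was 0.70 ± 0.07 log2 (SE, 1.63-fold, limma adjusted p = 0.0092). With no sex term it was larger, 1.03 ± 0.23 log2, but the spread of the mixed coastal group was larger too and the call was lost (limma adjusted p = 0.11). Over all genes the fit with no sex term called 51 genes, of which 33 were among the 49.

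The number of called genes changed when single birds were left out. A fit without a male has fewer males to carry the difference, so a fall by itself says nothing particular about that bird. The count was 17 without inland replicate 2, 20 without inland replicate 4 and 29 without inland replicate 3. Leaving out coastal males lowered it too, to 19, 17, 19 and 31 without coastal replicates 1 to 4. It was 46 without the one female and 46 without the other. Without inland replicate 1, the bird that stood apart, it rose to 64 (33 higher and 31 lower), of which 37 were among the 49. In that fit all inland birds had been collected on 8 August. In males alone the count was 64, 13, 31 and 16 without inland replicates 1 to 4 and 10, 9, 8 and 24 without coastal replicates 1 to 4. All 49 genes kept their direction in each of the 10 fits that left out 1 bird. That was fixed in advance, since the fitted difference is that between males, which did not overlap in these genes. Of the 49, 15 genes (9 higher, 6 lower) were called in every one of the 10 fits. Each of the 7 genes given above was among those 15.

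**Figure D4:**
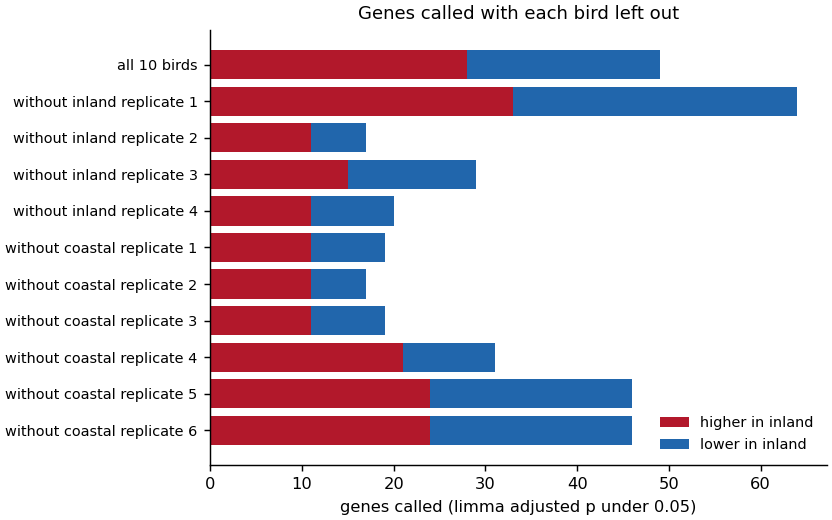
Number of genes called (x axis; limma adjusted p under 0.05) with all 10 non-migratory birds and with each bird left out in turn (y axis); red parts are genes higher and blue parts genes lower in inland birds. The count runs from 17 to 64 around the 49 of all birds.

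Day and hour of collection were uneven between ecotypes. With the day added to the model, 18 genes were called (8 higher, 10 lower), 14 of them among the 49. Day terms make each difference less precise, since the ecotypes are uneven within a day, so a fall by itself says nothing particular about day. With the hour added, 60 genes were called, 46 of them among the 49. Among males of 7 August, 1 inland bird faced 3 coastal birds, and all 49 genes differed in the called direction by at least 0.36 log2 (median 0.83). Among males of 8 August, 3 inland birds faced 1 coastal bird, and all 49 again differed in the called direction, by at least 0.37 log2 (median 0.80). Over all genes, 70.4% and 72.9% had on those days the sign of the fitted difference. These values come from the birds on which the genes were called. In none of the 49 genes did the males of the ecotypes overlap, so their direction on each day was fixed in advance. Only the sizes describe the days. The hour averaged 4.96 ± 1.45 (SD, n = 4) in inland birds and 4.34 ± 1.46 (SD, n = 4) in coastal males. The part of day, hour or inland replicate 1 in the differences was not tested further.

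The 9 migratory birds of the series, 5 inland and 4 coastal, shared no bird with these comparisons. They were fitted separately with a sex term, since 1 coastal bird was female. The sex term fits that female exactly, so each migratory difference is that between the males alone. The submitters set aside 1 more inland bird of that status as an outlier, not analysed here. Of the 49 genes, 46 (93.9%) had the same direction in migratory birds, 27 of the 28 higher and 19 of the 21 lower genes, where 57% of all genes had the same sign in the 2 sets. In migratory birds 771 genes were called (6.57%, limma), and 37 of the 49 were among them, all in the same direction (23 higher, 14 lower). Those 37 genes are 75.5% of the non-migratory list and 4.8% of the migratory list. The ecotypes did not overlap in migratory birds in 35 of the 49 genes, against 1121 genes overall (9.56%). Of the 49 genes called in non-migratory males, 45 had the same sign in migratory males and 35 were called in both. The fitted differences of the males are the same as those with a sex term, so these counts are no separate check. Without inland replicate 1, 55 of the 64 called genes had the same sign, and of 35 called in both sets 34 had the same direction. Migratory inland replicate 1 was collected in August with the non-migratory birds, and all other migratory birds on 3 and 4 October 2011. Without that August bird 714 genes were called in migratory birds, 45 of the 49 had the same sign and 32 were called in both.

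The 49 genes differed in migratory birds by a median of 0.70 log2, against 0.87 in the non-migratory birds on which they were chosen, and 33 of them differed more in the latter. Across all genes, which are not independent replicates, the differences of the statuses had a Pearson correlation of 0.34. Read the other way, 570 of the 771 genes of the migratory list (73.9%) kept their sign in the non-migratory birds. ENSFALG00000012167 differed by 1.16 ± 0.14 log2 (SE) and ENSFALG00000005089 by -0.75 ± 0.08 in migratory birds, close to their non-migratory values. ENSFALG00000011745 differed by 0.62 ± 0.11 log2 and ENSFALG00000009878 by -1.40 ± 0.19, both less than in non-migratory birds. The gene with the largest called deficit differed by -3.64 ± 0.35 log2, which was more. Its migratory inland values were again low (21.89 to 22.86 log2), with replicates 1 and 5 at the same 21.89. None of these changes in size passed a test of the difference itself (limma interaction, adjusted p from 0.45 to 0.93).

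**Figure D5:**
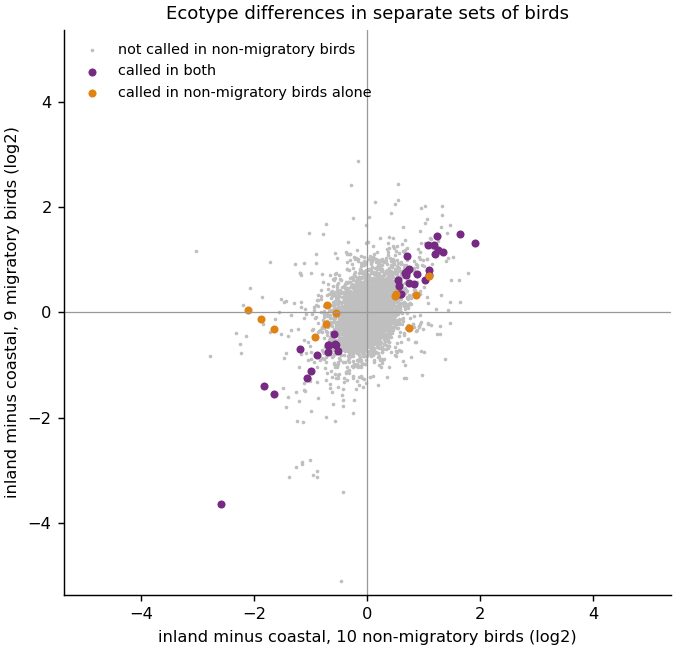
Inland minus coastal difference of each of 11727 genes (log2) in the 10 non-migratory birds (x axis) and in the 9 migratory birds (y axis), from separate fits. With a sex term in each fit, the differences are those between males. The 49 genes called in non-migratory birds are coloured, purple where also called in migratory birds (37) and orange where not (12); 46 of the 49 lie at lower left or upper right, with the same sign on both axes.

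Of the 49 genes, 3 had the opposite sign in migratory birds, and they were named after their values were seen. ENSFALG00000002962 differed by 0.74 ± 0.13 log2 (SE) in non-migratory and by -0.29 ± 0.19 in migratory birds. ENSFALG00000000063 differed by -0.71 ± 0.12 log2 in non-migratory and by 0.14 ± 0.22 in migratory birds. ENSFALG00000003731 differed by -2.12 ± 0.34 log2 in non-migratory birds and by 0.04 ± 0.72 in migratory birds. Its non-migratory inland values lay between 24.10 and 25.03 and those of the coastal males between 26.27 and 27.13, but the coastal females stood at 24.36 and 25.72. In migratory birds the coastal values, from 24.78 to 26.99 log2, lay within the range of the inland values, from 24.14 to 27.41. With the coastal female included, the migratory means of this gene were 25.55 log2 inland and 25.88 coastal, the same order as in non-migratory birds. In the other genes of the 3, the migratory means with the female included kept the opposite order. None of the 3 passed the interaction (limma adjusted p = 0.48 to 0.69), and each was called in 2 to 4 of the 10 fits that left out 1 bird.

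Whether the ecotype difference depended on migratory status was tested gene by gene over all 19 birds. Status largely coincided with the month of collection, August or October, so the test cannot tell status and month apart. No gene (0%) passed (limma interaction, smallest adjusted p = 0.31), and dropping the mean-variance trend and robust settings also gave 0. An unadjusted interaction p under 0.05 was found in 1049 genes. Among the 49 genes the smallest adjusted interaction p was 0.44, and 11 of them (22.4%) had an unadjusted interaction p under 0.05, against 8.95% of all genes. The 49 were chosen on one of the statuses compared, so that share is a description only. The whole 95% interval of the interaction was closer to 0 than 1 log2 in 87.6% of genes, and closer than 0.5 log2 in 52.2%.

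The smallest interaction p-values on either side belonged to genes that are given as values only. ENSFALG00000004697 stood at 29.61, 29.66, 29.61 and 29.59 log2 in non-migratory inland birds, above all non-migratory coastal birds (29.16 to 29.55). In migratory birds the order was opposite, with inland birds at 29.08 to 29.40 below coastal birds at 29.43 to 29.50. Of the 11727 genes, 129 were without overlap in the same direction in both statuses, and 1, ENSFALG00000004697, in opposite directions. Taken singly, 2.68% of genes were without overlap in non-migratory and 9.56% in migratory birds. ENSFALG00000004697 was picked for its interaction p, which rests on the same values, so the separation adds nothing to it. Its ecotype difference was 0.32 ± 0.08 log2 (SE) in non-migratory and -0.28 ± 0.08 in migratory birds, each from its own fit. The interaction, from the fit of all 19 birds with a common sex term, was 0.54 ± 0.11 log2 (limma adjusted p = 0.31). ENSFALG00000006487 did not differ detectably between ecotypes in non-migratory birds (-0.05 ± 0.16 log2, 95% interval -0.41 to 0.31). It was at 25.53 to 26.05 log2 in inland birds, 25.69 to 26.17 in coastal males, and 26.57 and 26.59 in coastal females. In migratory birds it differed by 0.97 ± 0.15 log2, and the interaction was -1.02 ± 0.19 (SE, limma adjusted p = 0.31).

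More genes were called for the non-migratory contrast when the migratory birds were added to the fit, and the cause of the rise was not tested. The fit of all 19 birds with 4 group means and a common sex term gave 127 genes (1.08%), 66 higher and 61 lower in inland birds. Of the 49 genes called in the 10 birds alone, 44 were among the 127, and the sign was the same in all 49. The differences of ENSFALG00000012167 (1.34 log2) and ENSFALG00000009878 (-1.79 log2) changed little in the larger fit. Those of the 3 genes with the opposite sign in migratory birds shrank. In this fit the migratory birds enter the non-migratory difference only through the common sex term, not through their own ecotype difference. ENSFALG00000003731 went from -2.12 to -1.75 log2, ENSFALG00000002962 from 0.74 to 0.58 and ENSFALG00000000063 from -0.71 to -0.63. None of the 3 was called in the larger fit (limma adjusted p = 0.14 to 0.29).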

How the data were processed

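RNA-seq libraries were made with a TruSeq RNA kit, which does not mark strand, per the labels' protocols; genes that overlap an antisense gene are therefore uncertain. Tools listed, with no stated role, in the submitters' processing notes are HTSeq, TopHat2 and Trim Galore 0.3.1. The genome build was not stated in the sources used here, nor was the annotation. The form of the identifiers is that of Ensembl for the collared flycatcher, another species. Deposited by the authors were log2 values (base assumed) for 11727 genes, counts summed over exons and TMM-normalized per the table's name. The columns share nearly the same sorted values, with medians of 28.05, as quantile normalization leaves them. A gene is thus higher or lower only relative to other genes of the same bird. Depth is unknown, so no counting interval is given.

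The values were tested as deposited, with no pseudocount and no filter, by limma 3.58.1 in R 4.3.3 (mean-variance trend, robust). The model held ecotype and sex in the 10 non-migratory birds, with p-values adjusted by Benjamini-Hochberg over all genes and calls at 0.05. Males, migratory birds and the interaction over 19 birds were fitted likewise. The procedure was also run on simulated data with independent noise in each gene. Those data held no bird that stood apart and no effect of day, so they do not cover such features of the real birds. Alternatives are given in the closing section. Named genes are the 2 smallest p in each direction among called genes of the all-bird and the male fit and, with no call, the smallest in each direction of the interaction. Genes named after their values were seen are marked. Comparison, rules and alternatives were chosen with earlier results of these data known. Gene lists and tissue markers were not tested, since 0 identifiers matched the RefSeq table of the thrush (bCatUst1.pri.v2), whose identifiers are of another kind. Replicates were numbered in accession order, each a separate bird.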

Additional observations from a re-analysis of the deposited data

Results flagged for a closer look

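In the gene with the largest called deficit in inland birds, coastal replicate 4, a male, stood at 24.99 log2, below the other 5 coastal birds at 25.66 to 26.05, a gap that was large for the range of its group of 6. It remained above all inland birds. This was 1 such value among 28 tests of a group on a named gene or a principal component, where about 1 in 20 is passed by chance.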

How the results depend on the processing

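The alternatives for non-migratory birds list the same fit, without coastal replicate 6, again as the October female left out. Fits in males only or without 1 female leave every fitted difference unchanged, so only the estimate of spread could move their counts. The count of 49 called genes in non-migratory birds (28 higher, 21 lower in inland birds) was within 1.5 times that number under 10 of 21 alternatives. It was 127 (66 and 61) in the fit of all 19 birds, 18 (8 and 10) with the day of collection added, 74 with birds weighted by their fit (36 lower), and 27 (16 and 11) with the genes of lowest mean (25%) left out, which kept 33 of the 49 in the test. With 1 bird left out it ran from 17 to 64 (11 to 33 higher, 6 to 31 lower). With inland replicate 1 and coastal replicate 6 both left out, an alternative chosen after seeing the data, it was 64. In males the count of 49 became 108 (59 and 49) with all 16 males, 19 (9 and 10) with the day added and 22 (14 and 8) without those genes; it ran from 8 to 64 (4 to 33 higher, 3 to 31 lower) with 1 male left out. The cause was not tested. The interaction gave 0 genes in 22 of 23 alternatives, and 0 to 1 with 1 bird left out: without inland replicate 1, ENSFALG00000003848 was called. None of the 5 genes named for the non-migratory contrast reversed its direction there, nor did ENSFALG00000004697 or ENSFALG00000006487 in the interaction. For the 5, leaving out a bird could not reverse the direction, since the ecotypes did not overlap in them. The interaction genes were picked for their small p in these same birds, so their kept direction adds nothing either. Of the 5, ENSFALG00000012486 lost its call with no sex term; the others kept theirs, except that ENSFALG00000009878 was among the genes of lowest mean and not tested without them. Rescaling each bird by the median of ratios shifted the median difference by -0.0082 log2. Replicate numbers do not pair birds, so no block was fitted. Unknown depth leaves counting error out of every value.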
